A study of Mus musculus with 4 samples.

Results

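The 10 genes described here encode interferon gamma (Ifng), the receptor chains of interferon gamma (Ifngr1, Ifngr2) and of the type I interferons (Ifnar1, Ifnar2), the Janus kinases bound to those chains (Jak1, Jak2, Tyk2) and the feedback inhibitors Socs1 and Socs3. They were picked by symbol from a table of 16218 genes measured by poly(A)-selected RNA sequencing of mouse thyroid, and all 10 were in the table and passed the filter on low counts. The thyroids came from mice of the thyroiditis-prone strain NOD.H-2h4 given either an isotype control IgG or an antibody against PD-L1 3 times a week for 2 weeks. There were 2 libraries per group, each titled as the thyroid of a mouse; the IgG libraries are called controls below and the anti-PD-L1 libraries treated. All mice shared the NOD.H-2h4 background, and the labels gave no age, sex or added iodine. Their genotype field held only the treatment, and their batch field held a different antibody clone string in every library, so no batch term could be fitted. PD-L1 binds PD-1, an inhibitory receptor of T cells, and the study asked which thyroid genes differ when it is blocked.

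Interferon gamma is made by T cells and natural killer cells. Each of its receptor chains carries a kinase, JAK1 on IFNGR1 and JAK2 on IFNGR2, which phosphorylate the receptor and then STAT transcription factors, while type I interferons use TYK2 on IFNAR1 and JAK1 on IFNAR2. SOCS1 binds and blocks the kinases of the interferon receptors, SOCS3 chiefly those of the interleukin 6 family, and both are induced by the pathways they inhibit. In the thyroid, interferon gamma is known for inducing MHC molecules on follicular cells.

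The stretches before the start sites of Ifng and of the inhibitors are shown because interferon signals reach genes through short motifs there. The windows run from 250 bases before to 50 bases after the start, are from RefSeq on GRCm38.p6 (chr10:118440796-118441095, plus strand; chr16:10785487-10785786, minus strand; chr11:117969317-117969616, minus strand) and are written 5′ to 3′. Capitals mark the gamma-activated site (GAS) motif TTCNNNGAA, which reads the same on both strands, or the core of the interferon-stimulated response element (ISRE), which is GAAA, then NN, then GAAA, searched on both strands. Positions count from the start site, the base before it being −1.
Ifng: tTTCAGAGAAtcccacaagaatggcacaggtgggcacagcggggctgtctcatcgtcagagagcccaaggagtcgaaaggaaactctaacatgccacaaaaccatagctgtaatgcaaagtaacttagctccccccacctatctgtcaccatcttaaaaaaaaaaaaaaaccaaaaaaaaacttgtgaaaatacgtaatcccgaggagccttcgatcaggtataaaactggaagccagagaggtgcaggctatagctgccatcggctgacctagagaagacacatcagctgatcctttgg
Socs1: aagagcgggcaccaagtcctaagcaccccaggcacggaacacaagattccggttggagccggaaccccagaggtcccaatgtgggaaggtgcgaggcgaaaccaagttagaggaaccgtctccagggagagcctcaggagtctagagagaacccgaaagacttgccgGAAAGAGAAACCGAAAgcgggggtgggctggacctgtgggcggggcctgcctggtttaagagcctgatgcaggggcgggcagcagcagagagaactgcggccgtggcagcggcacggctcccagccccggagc
Socs3: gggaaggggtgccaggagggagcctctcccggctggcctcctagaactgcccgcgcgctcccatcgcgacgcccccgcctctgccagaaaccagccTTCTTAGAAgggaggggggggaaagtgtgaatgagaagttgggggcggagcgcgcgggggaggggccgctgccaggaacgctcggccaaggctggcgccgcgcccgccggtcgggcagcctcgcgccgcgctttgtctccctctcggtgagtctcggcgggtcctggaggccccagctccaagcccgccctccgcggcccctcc
Socs1 held 2 ISRE cores that overlapped each other, from −83 to −68, and no GAS. Socs3 held 1 GAS from −154 to −146, and Ifng 1 at the far edge of its window, from −249 to −241. The RefSeq start used for Socs3 differs from that of the GENCODE annotation used below. GENCODE places the gene from 117966079 to 117970047, so the whole Socs3 window lies inside it. In all 10 promoters, GAS was present in 4, the others being Ifnar1 (TTCACGGAA) and Ifnar2 (TTCCTGGAA), and the ISRE core in 1. Of all 32851 promoter windows of 300 bases, 8.3% held a GAS and 3.44% an ISRE core. A match describes letters in the window and is no evidence of binding.

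Library totals lay between 75591923 and 79663374.5 counts, and Tg, the gene of thyroglobulin that defines follicular cells, took 14.6% to 16.95% of counts in 3 libraries and 4.342% in treated replicate 1. That library also stood apart with 1.40 CPM (counts scaled to library size and TMM-normalized) of Xist against 67.7 to 72.7 CPM, and 62.6 CPM of the Y-linked Ddx3y against 0.350 to 0.790 CPM, genes chosen after their values were seen. By these genes treated replicate 1 had the pattern of a male, and treated replicate 2 and both controls that of females. Sex thus differed within the treated group, and its part in the 10 genes' values was not tested. Summed CPM of 10 T cell markers was 31.8 and 54.8 in the controls and 155.3 and 157.5 in the treated libraries, and that of 8 natural killer and cytotoxic markers 4.12 and 6.63 against 39.2 and 44.8. Genes of neighbouring epithelia varied by library, with a summed CPM of 8 squamous genes of 10978 and 3009 in controls against 4411 and 48.5, and of 8 mucosal gland genes of 3684 and 16036 against 25597 and 8491. So did 8 skeletal muscle genes, with a summed CPM of 35229 and 45910 in the controls against 54738 and 21520. The sum of 3 parathyroid genes was 3515.1 and 1201.5 against 3645 and 2670.5. The summed CPM of 6 cartilage genes separated the groups, at 102.55 and 131.4 in the controls against 37.7 and 40.7. Of the 6, 5 were lower in both treated libraries, against 13.1% of all genes. An unadjusted p under 0.05 was found for 4 (1.1% of all genes lower), and edgeR called 0 and DESeq2 4 (0.327% of all genes lower). The part of this in the 10 genes' values was not tested. In RNA from whole thyroid, more cells of a type and more RNA per cell cannot be told apart.

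The 10 genes fell into 3 patterns. Ifng, Ifngr1 and Socs1 had higher values in both treated libraries than in both controls by more than either pair of replicates differed, by 2.31-fold, 1.41-fold and 2.74-fold. Ifnar1, Jak2 and Socs3 had groups that did not overlap, but 1 pair of replicates differed by more than the group means did, and for Jak1 the difference of means (0.21 on the log2 scale) was near the gap between the treated replicates (0.17). Ifnar2, Ifngr2 and Tyk2 had overlapping groups. The quasi-likelihood test of edgeR, adjusted by Benjamini-Hochberg over 16217 genes, called none of the 10 (adjusted p from 0.322 to 0.9997), and 0.0% of all genes were called higher and 0.0% lower at an adjusted p under 0.05. At an unadjusted p under 0.05, 3 of the 10 (Ifng, Ifngr1, Socs1) were higher and 0 lower, against 4.96% higher and 1.1% lower among all genes. Both treated libraries lay above both controls for 7 of the 10 and below for 0, against 16.5% and 13.1% of all genes. The median log2 fold change of the 10 was 0.31, against 0.00021 over all genes tested. It was 0.50 without treated replicate 1 and 0.18 without treated replicate 2. Without treated replicate 1, the library that stood apart, Ifngr1 was at 0.52, Ifnar1 at 0.45, Ifnar2 at 0.49, Jak1 at 0.29 and Socs3 at 0.62 on that scale, and the other genes' values are given below. limma voom called 0 of the 10, and DESeq2 called only Ifng, against 2.93% of all genes higher and 0.327% lower.

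**Figure D1:**
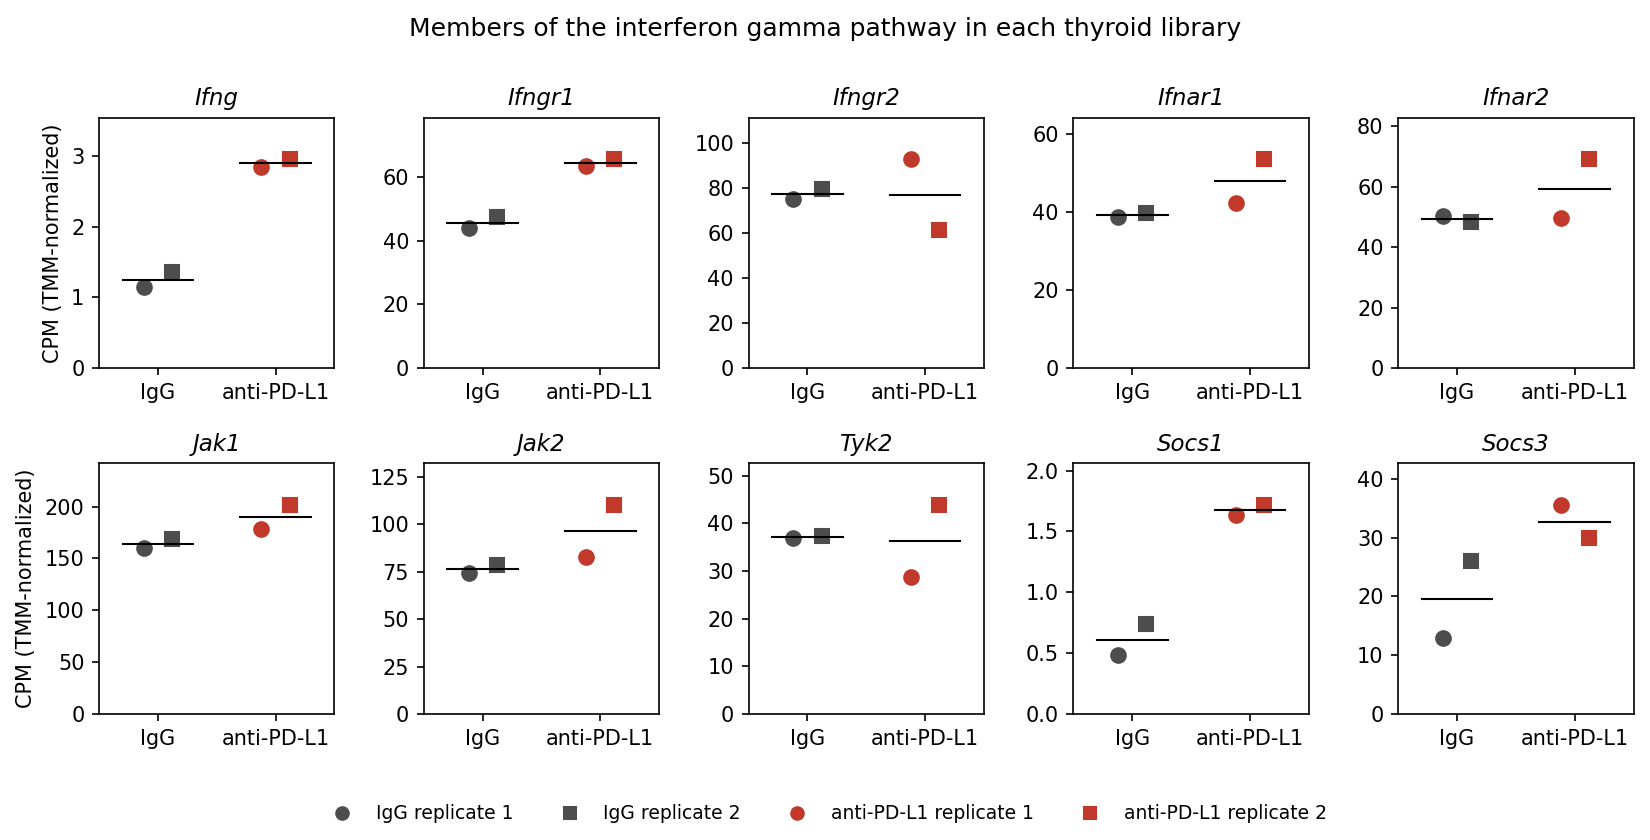
Expression of the 10 genes in each thyroid library, in TMM-normalized CPM on linear axes that start at 0. Grey symbols are IgG and red symbols anti-PD-L1, circles replicate 1 and squares replicate 2, and bars the means of 2 libraries. The groups stand clear of each other for Ifng, Ifngr1 and Socs1, and overlap for Ifngr2, Ifnar2 and Tyk2.

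Ifng, the only ligand among the 10, lies on chromosome 10 from 118441046 to 118445892 of GRCm38 on the plus strand. Its exons overlap those of a same-strand gene model, Gm49751, which was not among the listed symbols, so its reads are uncertain. It had 92 and 103 counts in the controls and 209 and 239 in the treated libraries, or 1.15 and 1.35 against 2.84 and 2.95 CPM. The control values were close together, the treated values closer still, and the groups did not overlap. Exact Poisson 95% intervals, which cover counting error only, ran up to 1.64 CPM in the higher control library and down to 2.47 CPM in the lower treated library. The log2 fold change was 1.21 ± 0.25 (SE, n = 2 per group, adjusted p = 0.322, edgeR), with a 95% interval from 0.54 to 1.88. It stayed between 1.08 and 1.33 with each library left out, and was 1.24 without treated replicate 1. DESeq2 called it higher (adjusted p = 0.0284), a call that was lost with any 1 library left out (DESeq2 adjusted p from 0.466 to 0.99993).

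Most T cell and cytotoxic markers had a larger fold change than Ifng, and B cell markers did not. Of the 18 T cell and cytotoxic markers in the table, 17 had a larger log2 fold change than Ifng, the other being Cd5, and their median was 2.39. The 6 B cell markers had overlapping groups (11418 of 16217 over all genes). Their log2 fold changes ran from −0.12 to 0.86, with a median of 0.30. The summed CPM of the 18 was 4.07-fold higher in the treated libraries by the group means. Within a library, the log2 ratio of Ifng counts to the summed marker counts was −4.96 and −5.50 in the controls and −6.09 and −6.10 in the treated libraries. The ratio was thus lower in both treated libraries, by 0.87 on average, although Ifng itself was higher. Such a ratio does not depend on the scaling between libraries, but an exact two-sided permutation test of 2 against 2 cannot go below p = 0.33, which was its value (0.467 adjusted over the 7 ratios computed). Without control replicate 1 the difference was −0.60, and without control replicate 2 it was −1.14.

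Genes that drive Ifng in lymphocytes had mostly higher values. Of 16 listed, 13 were in the table, edgeR called 0 and DESeq2 5, and 7 had an unadjusted p under 0.05, all higher. Their median log2 fold change was 1.44. Among all genes, 4.96% were higher at that unadjusted p and DESeq2 called 2.93% higher. Il12b, the shared p40 chain of interleukins 12 and 23, had 0.663 and 0.854 CPM in the controls against 3.06 and 2.84 CPM (adjusted p = 0.2001, edgeR). Il12rb1, a chain of their receptors, had 1.06 and 1.27 against 3.96 and 4.54 CPM (adjusted p = 0.19, edgeR). Ebi3, a subunit of interleukin 27, had 0.663 and 0.998 against 2.35 and 2.86 CPM (adjusted p = 0.320, edgeR). For all of these the groups stood apart. Groups overlapped for 4 of the 13, against 11418 of 16217 over all genes. These 4 were chosen after their values were seen. Il12rb2, the signalling chain of the interleukin 12 receptor, had 1.65 and 2.40 against 1.44 and 2.37 CPM. Il12a had 1.95 and 2.07 against 3.24 and 1.83 CPM, and the others were Il18 and Il18r1. The part that cell numbers have in these values was not tested.

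The receptor chains of interferon gamma had unlike patterns over the libraries. Ifngr1, the ligand-binding chain, on chromosome 10 from 19591949 to 19610229, measured 43.9 and 47.4 CPM in the controls and 63.4 and 65.5 CPM in the treated libraries. Both treated values lay well above both control values. The log2 fold change was 0.50 ± 0.14 (adjusted p = 0.540, edgeR), with a 95% interval from 0.12 to 0.87, and lay between 0.42 and 0.55 whichever library was left out. Ifngr2, the signalling chain on chromosome 16 from 91547072 to 91565623, had 75.1 and 79.4 against 92.6 and 61.3 CPM. The treated libraries lay on either side of the controls, so the mean hid a spread. The log2 fold change was −0.0058 ± 0.25 (adjusted p = 0.9997, edgeR), and its 95% interval from −0.67 to 0.66 leaves differences of either sign possible. It was −0.33 without treated replicate 1 and 0.25 without treated replicate 2.

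The ratio of Ifngr1 to Ifngr2 showed the same spread. On the log2 scale it was −0.77 and −0.75 in the controls, −0.55 in treated replicate 1 and 0.097 in treated replicate 2. Both treated ratios were higher, though they lay further from each other than the nearer one lay from the controls (difference of means 0.53, exact permutation p = 0.33, 0.467 adjusted over the 7 ratios).

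The chains of the type I interferon receptor, both on chromosome 16, were close to each other in pattern. Ifnar1 (91485238 to 91507441) had 38.6 and 39.8 CPM in the controls and 42.3 and 53.4 CPM in the treated libraries, a log2 fold change of 0.29 ± 0.17 (adjusted p = 0.9997, edgeR). Ifnar2 (91372783 to 91405589) had 50.2 and 48.3 against 49.6 and 69.0 CPM, with a log2 fold change of 0.27 ± 0.21 (adjusted p = 0.9997, edgeR). For both genes 1 library, treated replicate 2, was high, and the other treated library sat near or among the controls. Without treated replicate 2 the log2 fold changes were 0.097 for Ifnar1 and −0.0036 for Ifnar2. The ratio of Ifnar1 to Ifnar2 overlapped between the groups, with a difference of 0.031 on the log2 scale (exact permutation p = 0.667, 0.778 adjusted). Like Ifng, Ifnar2 shares exonic sequence with a same-strand model, here Gm21970, and its reads are uncertain too.

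Other chains that the interferon families use had small differences of either sign. Il10rb, which interferon lambda shares with interleukin 10, had 53.4 and 51.1 against 59.8 and 69.9 CPM (log2 fold change 0.31 ± 0.16, adjusted p = 0.9997, edgeR). Ifnlr1, the specific chain of the interferon lambda receptor, had 12.9 and 9.66 against 9.55 and 8.58 CPM (log2 fold change −0.32 ± 0.23, adjusted p = 0.9997, edgeR). The other 10 of the 12 listed genes, all type I or lambda ligands such as Ifnb1 and Ifna4, were not among the listed symbols, and no gene in the table stayed under 100 counts in every library, so their levels were not analysed here.

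Among the kinases, Jak2, which signals from IFNGR2 and lies on chromosome 19 from 29251828 to 29313080, measured 74.3 and 78.6 CPM in the controls and 82.7 and 109.99 CPM in the treated libraries. Only treated replicate 2 was clearly above the rest. Its log2 fold change of 0.33 ± 0.20 (adjusted p = 0.9997, edgeR) was 0.52 without treated replicate 1 and 0.099 without treated replicate 2. Jak1, shared by both receptors, on chromosome 4 from 101152367 to 101265282, had 160.3 and 168.3 against 178.4 and 201.3 CPM. The groups did not overlap, but the 95% interval of its log2 fold change (0.21 ± 0.19) ran from −0.30 to 0.72. Its exons overlap those of Raver2 on the opposite strand, and without a stated strand setting their reads cannot be told apart.

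Tyk2, the kinase on IFNAR1, lies on chromosome 9 from 21104068 to 21131243. It had 36.9 and 37.5 CPM in the controls, 28.7 CPM in treated replicate 1 and 43.8 CPM in treated replicate 2. As for Ifngr2, the treated libraries lay on either side of the controls, here in the opposite order. The log2 fold change of −0.036 ± 0.24 (adjusted p = 0.9997, edgeR, 95% interval −0.69 to 0.62) was 0.24 without treated replicate 1 and −0.39 without treated replicate 2. An antisense transcript, 1700084C06Rik, overlaps its exons. The log2 ratio of Jak2 to Tyk2 was 1.01 and 1.07 in the controls and 1.53 and 1.33 in the treated libraries, higher in both (difference 0.39, exact permutation p = 0.33, 0.467 adjusted). The ratio of Jak2 to Jak1 overlapped between groups, by a difference of 0.11 (exact permutation p = 1).

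**Figure D2:**
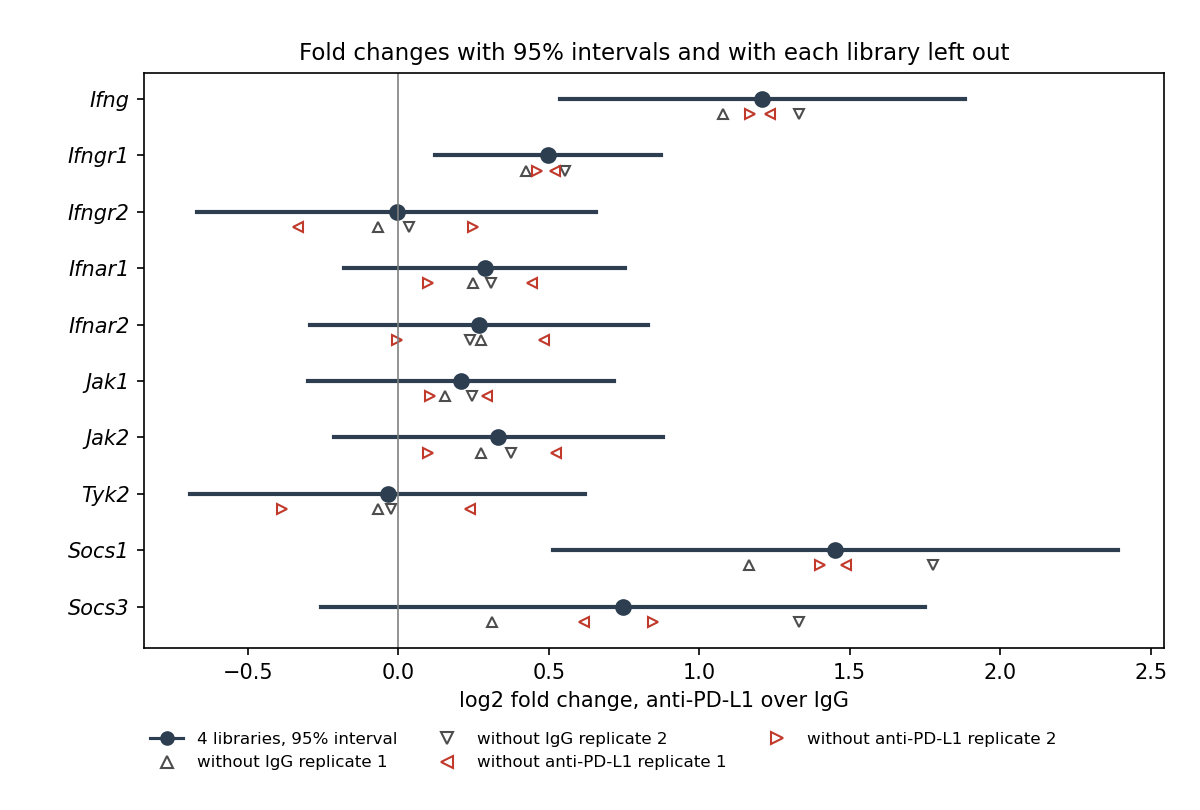
Log2 fold change of each gene, anti-PD-L1 over IgG, with its 95% interval from the edgeR fit (n = 2 libraries per group) and, as open triangles below it, the value with each library left out. The intervals of Ifng, Ifngr1 and Socs1 lie above 0, before any adjustment over genes, and the open triangles of Ifngr2, Ifnar2 and Tyk2 lie on both sides of 0.

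Of the inhibitors, Socs1 had the largest fold change of the 10 and the lowest level. It lies on chromosome 16 from 10782240 to 10785536 and had 39 and 56 counts in the controls and 120 and 139 in the treated libraries, or 0.488 and 0.735 against 1.63 and 1.72 CPM. Both treated libraries lay above the higher control library, and the exact Poisson 95% intervals, covering counting error only, ended at 0.955 CPM there and began at 1.35 CPM in the lower treated library. The log2 fold change was 1.45 ± 0.35 (adjusted p = 0.419, edgeR, DESeq2 adjusted p = 0.0953), with a 95% interval from 0.51 to 2.39. It was 1.17 without control replicate 1 and 1.78 without control replicate 2, and 1.49 without treated replicate 1.

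Socs3, on chromosome 11 from 117966079 to 117970047, had 13.01 CPM in control replicate 1, 26.0 CPM in control replicate 2, and 35.5 and 29.9 CPM in the treated libraries. Here control replicate 2 lay nearer to the treated libraries than to the other control library. The log2 fold change of 0.75 ± 0.37 (adjusted p = 0.9997, edgeR, 95% interval −0.26 to 1.75) was 0.31 without control replicate 1 and 1.33 without control replicate 2, so 1 control library set its size. Summed CPM of 6 B cell markers was likewise low in control replicate 1, at 38.5 against 105.3 in control replicate 2 and 132.4 and 67.2 in the treated libraries. Of the 6, Cd22 did not follow, at 10.2 and 10.1 CPM in the controls. The T cell, cytotoxic, mucosal gland, skeletal muscle and cartilage sums given above were also lower in control replicate 1 than in control replicate 2. The squamous and parathyroid sums were higher there. The part of any of these in the Socs3 values was not tested. The log2 ratio of Socs1 to Socs3 was −4.72 and −5.13 in the controls and −4.44 and −4.12 in the treated libraries, higher in both (difference 0.65, exact permutation p = 0.33, 0.467 adjusted).

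Other negative regulators had values in both directions. Of 21 in the table, edgeR called 0 and DESeq2 3, 4 had an unadjusted p under 0.05, all higher, and the median log2 fold change was 0.10. Among all genes, 4.96% were higher at that unadjusted p and DESeq2 called 2.93% higher. Groups overlapped for 14 of the 21, a share near that of all genes (11418 of 16217). Usp18, which binds IFNAR2 and blocks type I signalling, had 6.75 and 6.40 CPM in the controls against 17.6 and 21.9 CPM (adjusted p = 0.172, edgeR). Ptpn6, a phosphatase of blood cells also called SHP-1, had 16.1 and 28.8 against 54.2 and 55.9 CPM (adjusted p = 0.430, edgeR). Ptpn1, a phosphatase of JAK2 and TYK2, had 87.3 and 97.9 against 143.5 and 143.5 CPM (adjusted p = 0.519, edgeR). These had groups well apart. The other members of the SOCS family, Socs2, Socs4, Socs5, Socs6, Socs7 and Cish, chosen after their values were seen, had log2 fold changes from −0.24 for Socs2 to 0.11 for Cish, and only for Socs6 (−0.15 ± 0.13) did the groups not overlap.

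The listed transducers and targets downstream of the receptors had larger median log2 fold changes than the 10 genes. Of 9 transducers, a list that held the kinase Jak3, 5 had an unadjusted p under 0.05, all higher, against 4.96% of all genes. edgeR called 0 of the 9 and DESeq2 3 (2.93% of all genes higher), and the median log2 fold change was 0.87. Jak3, chosen after its values were seen, had 11.2 and 17.4 against 25.3 and 30.2 CPM (adjusted p = 0.551, edgeR). Stat2, a transducer of type I signalling, had 19.9 and 19.4 against 53.3 and 71.4 CPM (adjusted p = 0.17, edgeR). Irf1, a transcription factor induced through GAS motifs, had 35.1 and 29.7 against 89.0 and 78.05 CPM (adjusted p = 0.172, edgeR). Irf9, the DNA-binding partner of STAT2, had 37.6 and 31.1 against 55.7 and 70.0 CPM (log2 fold change 0.87 ± 0.20, adjusted p = 0.380, edgeR). In each of these the groups did not overlap. The list's other STAT genes, chosen after their values were seen, were mixed. Stat5a, Stat5b and Stat6, which serve other cytokines, had overlapping groups. Stat3 (96.0 and 99.6 against 112.2 and 134.3 CPM) and Stat4 (2.64 and 3.82 against 5.42 and 6.94 CPM) were higher in both treated libraries.

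Targets of interferon gamma had a median log2 fold change of 2.46, and 15 of 16 had groups apart, all higher. edgeR called 0 of them (14 at an unadjusted p under 0.05) and DESeq2 14, and Igtp, an interferon-inducible GTPase, had the smallest edgeR p (13.6 and 16.8 against 165.9 and 143.7 CPM, adjusted p = 0.0833, edgeR). Gbp2 and Iigp1, GTPases of the same response, had log2 fold changes of 2.65 ± 0.17 and 3.06 ± 0.21 (adjusted p = 0.0833, edgeR for both). Targets of type I interferon had a median of 1.89, with 13 of 15 groups apart and higher and 0 called by edgeR (12 at an unadjusted p under 0.05) against 9 by DESeq2. Zbp1 had a log2 fold change of 2.50 ± 0.22, Ifit2 2.01 ± 0.29 and Ifit3 2.76 ± 0.42 (adjusted p = 0.153, edgeR, 0.2001 and 0.2103). Over all genes, the groups stood apart and higher for 16.5%. Counting higher genes only, the all-gene share was 4.96% by the edgeR p before adjustment, and 2.93% by DESeq2. Many genes respond to both interferon types, so the lists do not separate them. Summed CPM of 10 macrophage and monocyte markers, cells that also express these genes, was 182.6 and 210.6 in the controls and 711.1 and 695.0 in the treated libraries, and the part of this in the targets' values was not tested.

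**Figure D3:**
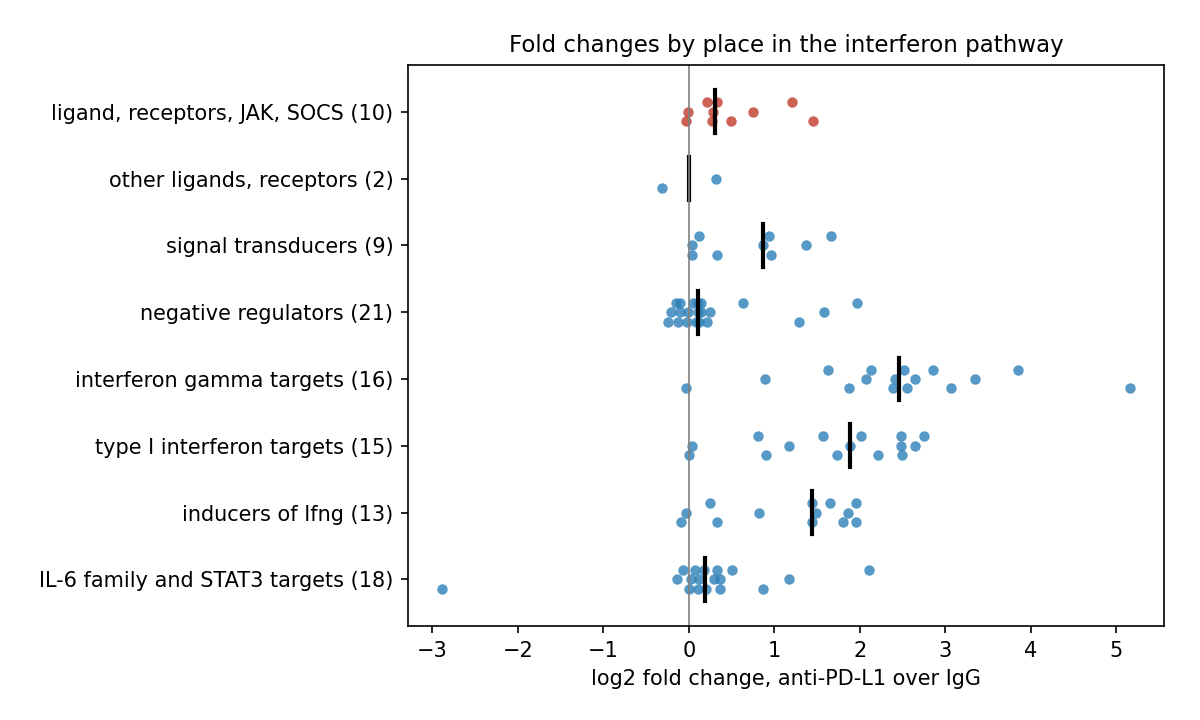
Log2 fold change, anti-PD-L1 over IgG, of each gene in the table by its place in the pathway. Each point is 1 gene, the number of genes is in brackets, and black bars are medians: 0.31 for the 10 genes (red), 0.87 for the transducers, 2.46 for interferon gamma targets and 1.89 for type I targets.

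Cytokines of the interleukin 6 family signal through JAK1 and STAT3 and induce Socs3. They were listed beside it together with receptors and STAT3 targets. Of 22 genes, 18 were in the table (the cytokines Il6, Osm, Il11 and Il10 were not among the listed symbols). Of the listed cytokines only Lif and Clcf1 were in the table, both with overlapping groups (log2 fold changes 0.030 and −0.071). Of the 18, edgeR called 0 and DESeq2 2, and 2 had an unadjusted p under 0.05, all higher. Among all genes, 4.96% were higher at that p and DESeq2 called 2.93% higher. Groups overlapped for 10 of the 18 (11418 of 16217 over all genes), and the median log2 fold change was 0.185. The genes of smallest p were receptors found on leukocytes. Csf3r, the receptor of granulocyte colony-stimulating factor, had 2.13 and 3.20 against 6.04 and 5.99 CPM (adjusted p = 0.429, edgeR). Il10ra had 3.24 and 9.39 against 24.97 and 29.2 CPM (adjusted p = 0.495, edgeR), and Il4ra 36.2 and 45.2 against 49.4 and 65.9 CPM (adjusted p = 0.967, edgeR). Csf3r, Il10ra and Il4ra all shared with Socs3 a higher value in control replicate 2 than in control replicate 1. The listed genes that are neither cytokines nor receptors (Bcl3, Junb, Cebpb, Cebpd, Pim1, Lcn2 and Saa3), chosen after their values were seen, all had overlapping groups. Lcn2 had the largest log2 fold change of the list by size (−2.88 ± 1.28), with 3.76 and 56.5 against 3.87 and 4.30 CPM.

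Levels of different genes were compared per kilobase of merged exons, as means over the 4 libraries. Jak1 was the most abundant at 24.5 CPM per kb, followed by Ifngr2 (20.5), Ifngr1 (19.3), Jak2 (17.2), Ifnar2 (16.3), Socs3 (9.03), Ifnar1 (7.33), Tyk2 (5.35), Ifng (1.60) and Socs1 (0.393). The 4 highest each overlapped the next in their ranges over the libraries, as did Socs3 and Ifnar1, while Ifnar2 stayed above Socs3, Ifnar1 above Tyk2, Tyk2 above Ifng, and Ifng above Socs1 in every library. The receptor chains and kinases thus ran from 5.35 to 24.5 CPM per kb, and Ifng and Socs1 lay below all of them in every library. The gap was narrow in treated replicate 1, with Tyk2 at 4.17 and Ifng at 2.20 CPM per kb. The order depended on the length used. With the longest transcript as the length, every level but those of Jak2 and Socs1 was higher per kb, and 3 neighbouring pairs changed places: Ifngr1 (26.1) ranked above Ifngr2 (20.8), Ifnar2 (17.8) above Jak2 (17.2) and Ifnar1 (11.1) above Socs3 (10.2).

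The genes most like a member were found by the Euclidean distance between centred log2 CPM over the 4 libraries, among 15145 genes with a mean of at least 1 CPM. Nearest to Ifng were Arhgap25, Zmynd15, Fes, Arhgap9 and Traf1, at distances of 0.0636 to 0.1045 against a median of 1.29 over all genes. Arhgap25 had 4.64 and 5.46 CPM in the controls and 11.99 and 11.8 CPM in the treated libraries. Nearest to Socs1 were Sp110, Pirb, Unc93b1, Sit1 and Csprs (0.0947 to 0.1341, median over all genes 1.56), and Sp110, an interferon-inducible nuclear body gene, had 4.64 and 6.74 against 16.0 and 15.6 CPM. Nearest to Socs3 were Gimap6, Treml2, Gpr182, Lipk and Arl4c (0.0367 to 0.1542, median 1.18), and Gimap6, a GTPase gene of lymphocytes, had 8.78 and 17.5 against 24.0 and 19.6 CPM. Its low value in control replicate 1, as for Socs3, follows from the choice by distance. With 4 libraries many genes can lie this close.

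**Figure D4:**
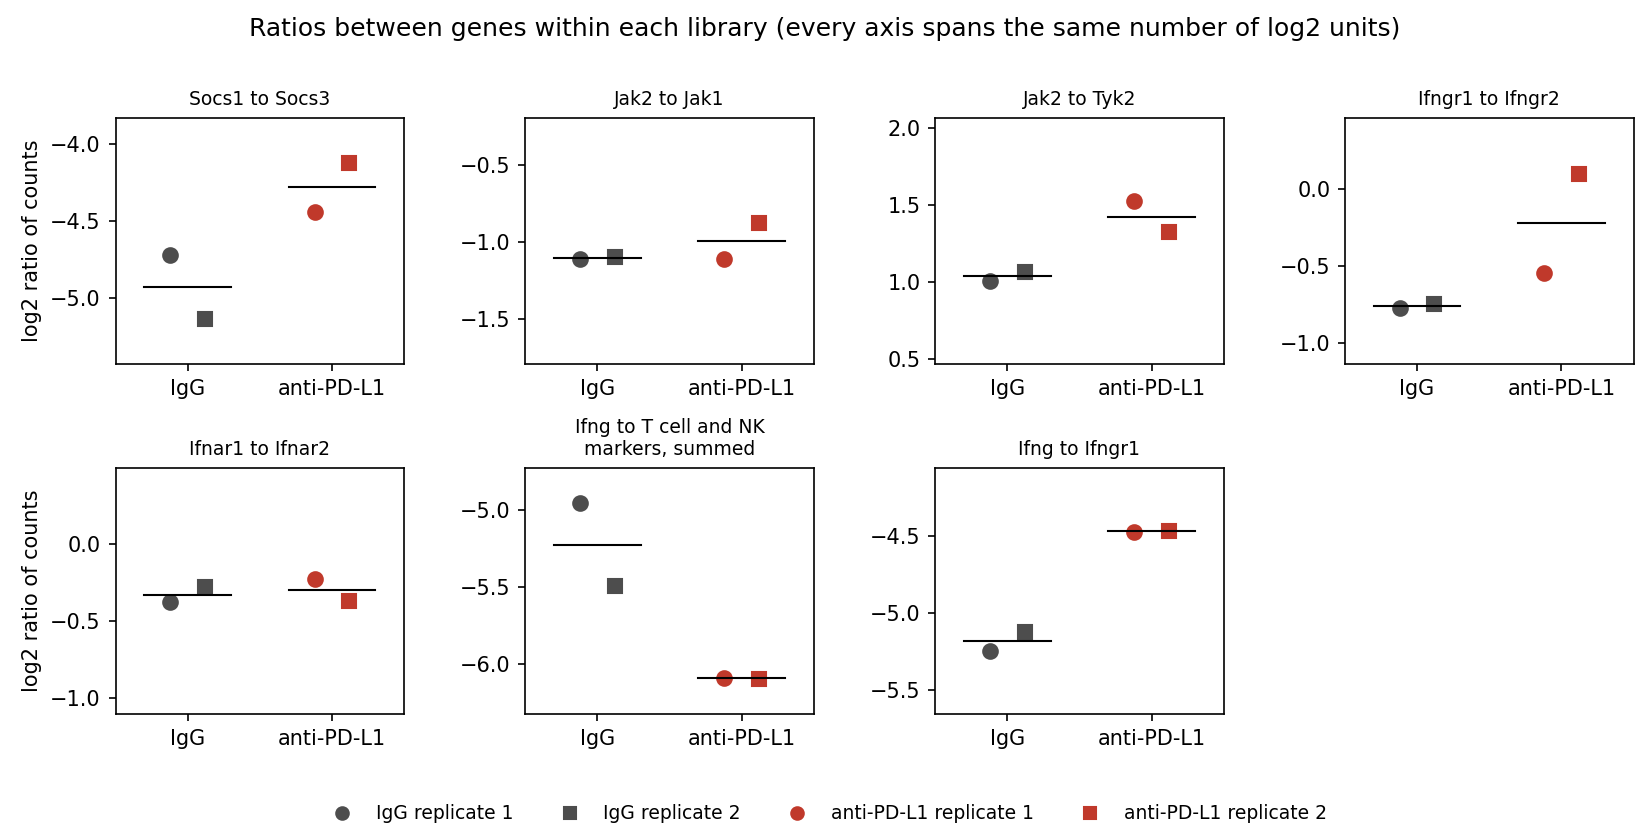
Log2 ratios between genes' counts (pseudocount 0.5) within each library, grey for IgG and red for anti-PD-L1, circles for replicate 1 and squares for replicate 2, with bars at the group means of 2 libraries. Ifng to the summed T cell and NK markers is lower in both anti-PD-L1 libraries (−6.09 and −6.10) than in the IgG libraries (−4.96 and −5.50), and Ifng to Ifngr1 higher (difference 0.71).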

How the data were processed

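Per the file header, the authors' deposited values are raw expected counts per gene symbol, not normalized. BWA and mm10 are named, with no role, per the submitters' processing notes, and the counter, annotation and strand setting were not given in the labels. Low genes had been removed (each reached 100 in some library), 13 blank cells were read as 0, and 3328 genes held a count ending in 0.5 (Jak2 and Tyk2 among them), which was rounded to the even whole number. CPM were computed from these counts. edgeR 4.0.16 (R 4.3.3) used filterByExpr, TMM, robust quasi-likelihood F tests on group alone, two-sided, Benjamini-Hochberg adjustment over 16217 genes and a threshold of 0.05. The SE is the absolute log2 fold change over the square root of F, and 95% intervals use the fit's total degrees of freedom (2 residual, 2.42 prior at the median). The labels do not say more of the animals than the titles, so p-values measure the spread between these libraries. Replicates of a group differed by more than sampling noise (a ratio of chi-square to its degrees of freedom of 321 in controls and 1056 in treated libraries), so none was counted as a duplicate.

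Members and gene lists were chosen with earlier results of these data known. Named genes were the 10 members, the 3 genes of smallest edgeR p per pathway list, and the 5 genes nearest in pattern to Ifng, Socs1 and Socs3. From the list of signal transducers 1 gene is not reported here, and the counts and median of that list are without it. Annotation was GENCODE M21 on GRCm38, the assembly also called mm10. On simulated data for this comparison (200 of 16217 genes changed), edgeR recovered 2% of genes changed by 1 log2 unit and 67% of those changed by 2, with 12 false calls, and DESeq2 23% and 92%, with 76. The simulated counts were drawn for each gene on its own from the fitted dispersions, without library differences that many genes share. In the data themselves edgeR called 0 genes, so these shares need not hold there. Alternatives were RLE, upper-quartile and library-size scaling, no filter or at least 1 CPM in at least 2 libraries, DESeq2 1.42.0, limma 3.58.1 voom, a block for the replicate number, leaving out each library, other pseudocounts (0 or 2) and transcript lengths. DESeq2 with each library left out was chosen after seeing the data.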

Additional observations from a re-analysis of the deposited data

How the results depend on the processing

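No scaling, filter or limma voom fit called a gene (edgeR put 804 higher and 178 lower at an unadjusted p under 0.05), and only DESeq2 did, with 475 higher and 53 lower, 1 of the 10 members among the higher. With DESeq2, counts higher were 197 without IgG replicate 1, 491 without IgG replicate 2, 483 leaving out anti-PD-L1 replicate 1 and 430 leaving out the other, with 30, 24, 656 and 355 lower, and 0 of the 10 members were called in any of these 4 fits, where the lone library of a group is assumed to vary like the others. With edgeR and 1 library left out 0 genes were called. The median log2 fold change of the 10 members lay between 0.18 and 0.50 when a library was left out, for edgeR and for DESeq2, and from 0.295 to 0.338 under the other settings. The sign changed for Ifngr2 with library-size scaling (0.0049), without IgG replicate 2 (0.036, DESeq2 0.031) and without anti-PD-L1 replicate 2 (0.249, DESeq2 0.254; −0.335 leaving out the other treated library), for Ifnar2 without anti-PD-L1 replicate 2 (−0.0036, but 0.485 leaving out replicate 1), and for Tyk2 without anti-PD-L1 replicate 1 (0.238, DESeq2 0.236; −0.388 leaving out replicate 2). It also changed for the ratio of Jak2 to Jak1 without anti-PD-L1 replicate 2 (−0.0066, but 0.231 leaving out replicate 1) and of Ifnar1 to Ifnar2 when IgG replicate 1 (−0.018) or anti-PD-L1 replicate 1 (−0.040) was left out, against 0.101 leaving out anti-PD-L1 replicate 2. The other 7 members kept their sign in all 16 alternatives. The replicate numbers are only numbers in the titles, and same-numbered libraries deviated with a correlation of 0.0998 across genes. With the replicate block edgeR called 0 genes, and the log2 fold changes were 1.21 for Ifng, 0.50 for Ifngr1 and 1.48 for Socs1. Depth limits Ifng and Socs1 most, where 3 counts correspond to 0.037 to 0.0408 CPM.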
